A study of Mus musculus with 12 samples.

Results

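Ribosomal protein genes encode the protein parts of the cytosolic ribosome. They were taken here as the autosomal protein-coding genes of GENCODE M21 (mouse genome mm10) whose symbol is Rpl or Rps followed by a number, together with Rpsa, Rplp0, Rplp1 and Rplp2 and without the Rps6k kinases. The rule found 79 genes of 20807 autosomal protein-coding genes, and 4 further genes on chromosome X were left out. The rule uses symbols and no measured value, though it was proposed with earlier results of these data known. The transcription start site (TSS) of each gene was its most upstream annotated start. The 79 genes comprised 48 of the large subunit and 31 of the small subunit, 6 of which were paralogs with a symbol ending in a number and l or l1 (Rpl3l, Rpl7l1, Rpl10l, Rpl22l1, Rpl39l, Rps27l).

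Ribosomal protein genes are among the most highly transcribed genes of growing cells. Their promoters are mostly rich in CpG, and many transcripts start at a C within a run of C and T, the terminal oligopyrimidine motif through which their translation is controlled. Replication of mammalian DNA often starts near active promoters, from where forks move away on both sides. Since Okazaki fragments come from the lagging strand, their strand tells which way a fork moved.

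OK-seq, the sequencing of Okazaki fragments labelled with the thymidine analog EdU, was done in naive embryonic stem cells (ESCs) and in epiblast-like cells (EpiLCs), which the labels also call formative. Each state was measured in 3 lines, the control, which lacks KMT2C, the KMT2C/D dKO, which lacks both KMT2C and KMT2D, and the KMT2C/D dCD, in which both proteins are catalytically dead. KMT2C and KMT2D methylate histone H3 lysine 4 at enhancers, so the control carries a deletion too and is not wild type. In the study's methods the dKO comes from the control line by deletion of conditional KMT2D alleles with a tamoxifen-inducible Cre, on a mixed C57BL/6 and 129 background, and the dCD from the 129 line R1, so that for the dCD genotype and line cannot be told apart. The 2 replicates of each condition are summed in the processed tracks, which leaves 6 pooled libraries from 12 samples and no error between replicates. All intervals below are 95% counting intervals, which cover counting error only, and no difference between conditions was tested.

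The libraries held 3655095 to 4409068 reads in the naive state and 11407678 to 13601460 in EpiLCs. Strand bias compares the share of Crick reads between both sides of a TSS, right minus left over 25 kb each in genome coordinates, in percentage points, and is positive where forks move away from the TSS. All 79 genes had at least 10 reads on each side in all 6 libraries, and the lowest side held 23 reads. A gene had 56 to 204 reads in a naive and 189 to 586 in an EpiLC library, so single genes have wide intervals. Over the bodies of the targeted genes the libraries held 426 to 496 naive reads at Kmt2c and 96 to 132 at Kmt2d, with 450 and 132 in the naive KMT2C/D dKO. In EpiLCs Kmt2d had 305 reads in the control and 291 in the dKO. Relative to its flanks the read density at Kmt2d was 0.997 in the control and 1.25 in the dKO in the naive state, and 1.17 and 0.914 in EpiLCs, so it ran opposite ways in the 2 states. Bins of 1 kb over a whole gene do not check a deletion of part of it.

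The promoters of ribosomal protein genes are shown for genes at both ends of the order of strand bias, to let their start regions be compared. Of the 79 genes, 59 matched the promoter table of RefSeq (GRCm38.p6, the assembly of mm10). Each line has the 80 bases before the annotated start and the first 10 bases of the transcript, on the strand of the gene. The annotated start is base 81 of a line. Capitals mark the longest run of C and T, of at least 5 bases, among the runs that reach into the 21 bases centred on the start, and other runs are left in lower case.
Rpl34 (chr3:130730389-130730478, minus strand): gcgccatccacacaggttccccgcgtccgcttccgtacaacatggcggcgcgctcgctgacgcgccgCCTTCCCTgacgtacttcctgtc
Rpl35a (chr16:33056373-33056462, plus strand): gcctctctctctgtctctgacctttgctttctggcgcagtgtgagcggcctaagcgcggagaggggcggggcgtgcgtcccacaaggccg
Rps16 (chr7:28350609-28350698, plus strand): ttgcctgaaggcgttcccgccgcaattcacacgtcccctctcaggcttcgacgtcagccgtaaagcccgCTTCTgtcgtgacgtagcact
Rpl31 (chr1:39367771-39367860, plus strand): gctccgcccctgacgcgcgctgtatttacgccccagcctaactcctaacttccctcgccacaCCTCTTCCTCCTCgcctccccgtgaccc
Rps18 (chr17:33955656-33955745, minus strand): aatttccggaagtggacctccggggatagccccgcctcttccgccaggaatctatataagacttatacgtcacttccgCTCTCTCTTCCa
Rpl10a (chr17:28328391-28328480, plus strand): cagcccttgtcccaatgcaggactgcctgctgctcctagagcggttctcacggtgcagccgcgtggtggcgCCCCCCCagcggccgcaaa
Rpl34, Rpl35a and Rps16 were among the genes with the highest strand bias and Rpl31, Rps18 and Rpl10a among the lowest. In this small set the longer C and T runs were at Rpl31 and Rps18, at the low end, and at Rpl35a no run of 5 bases reached into the 21. Among the 6 only the marked run of Rps18 held the start itself. At Rpl31 and Rpl35a the start lay in a shorter run that is left in lower case. Among the 59 promoters, 12 began with a C followed by 4 further bases of C or T (20.3%), against 2.19% of the 15686 promoters of autosomal genes matched in the same way. The letters CCGGAAG, the core of ETS factor motifs, stood on either strand within 250 bases upstream at 19 (32.2%), against 9.70% of all, and TATAAA at 2 (3.39%), against 12%. A match to these letters is no evidence of binding, and OK-seq in 1 kb bins does not resolve them.

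Forks moved away from the ribosomal protein TSSs in all 6 libraries. Summed over the 79 genes, strand bias was 14.2 percentage points (95% counting interval 12.2 to 16.1) in the naive control, 8.22 (6.15 to 10.3) in the naive KMT2C/D dKO and 12.5 (10.4 to 14.6) in the naive KMT2C/D dCD. In EpiLCs it was 7.98 (6.72 to 9.24) in the control, 5.68 (4.50 to 6.85) in the dKO and 9.81 (8.62 to 10.99) in the dCD. The dKO was the lowest line in both states. The Crick share went from 42.6% left of the TSSs to 56.8% right of them in the naive control. Between 60 and 68 of the 79 genes (75.9% to 86.1%) had a strand bias above 0 in a given library, against 66.6% to 69.7% of other TSSs and 75.9% to 79.5% of those in the highest quartile of CpG content, with an SD over genes of 12.2 to 14.3 points in the naive and 8.72 to 9.66 in the EpiLC libraries. Leaving out any single gene kept the sum between 13.7 and 14.7 in the naive control and between 7.88 and 8.70 in the naive dKO.

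**Figure D1:**
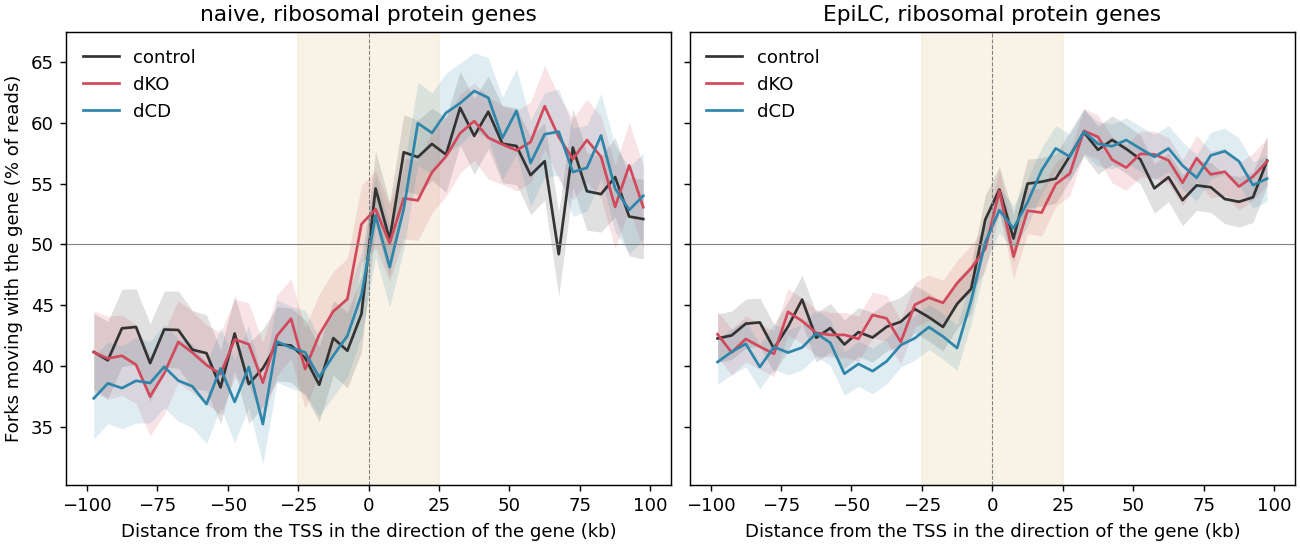
Share of forks that move in the direction of the gene (percent of reads, lines; bands are 95% counting intervals) in steps of 5 kb around the TSSs of the ribosomal protein genes, in naive ESCs (left) and EpiLCs (right), by line. The shaded 25 kb on both sides are the windows of strand bias; in the naive state the control and the dKO separate within them and lie closer together farther out.

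The step at the TSSs was flanked by broad arms. Between 25 and 50 kb from the TSS, the difference between the right and left sides was larger than within 25 kb, at 18.4 points in the naive control, 16.9 in the naive dKO and 21.9 in the naive dCD, and at 14.8, 13.96 and 17.4 in EpiLCs. Between 50 and 100 kb it was still 13.3 points in the naive and 11.95 in the EpiLC control. Over all other autosomal protein-coding TSSs the same outermost distance gave 6.04 and 5.00 points. Broad arms were also seen in the sets closest to these genes, since mitochondrial ribosomal protein genes had 11.04 and 8.62 points at that distance, and 11.6 between 25 and 50 kb in the naive control, and the highest CpG quartile had 9.62 and 8.03. Close to the TSS, within 5 kb, the ribosomal protein genes had 10.4 points in the naive and 2.94 in the EpiLC control, below the values between 10 and 25 kb in both states (17.2 and 11.1).

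Compared with other promoters, those of ribosomal protein genes stood higher in the control and dCD libraries over 25 kb as measured. All other 20728 TSSs had a summed strand bias of 6.70 points in the naive and 4.44 in the EpiLC control, which was 7.47 (5.50 to 9.42) and 3.54 (2.28 to 4.80) below the ribosomal protein genes. The difference was 5.35 (3.20 to 7.49) in the naive dCD and 4.62 (3.43 to 5.80) in the EpiLC dCD. In the dKO the intervals held 0, at 1.70 (-0.38 to 3.77) in the naive state and 0.88 (-0.29 to 2.06) in EpiLCs. This depended on the T minus A correction described below. With it the naive dKO had 5.73 points (3.65 to 7.80) at ribosomal protein and 2.92 (2.78 to 3.06) at other TSSs. The EpiLC dKO then had 3.76 (2.58 to 4.93) and 1.95 (1.87 to 2.03). Windows of neighbouring genes overlap among the other TSSs, so reads there are counted more than once and their intervals are too narrow. Counting each kilobase once, the controls gave differences of 4.15 (naive) and 1.47 (EpiLC). With windows of 10 kb they were 3.51 (0.38 to 6.61) and -0.28 (-2.26 to 1.70). Within 5 kb the naive dKO (1.47 against 5.35), the EpiLC control (2.94 against 3.23) and the EpiLC dCD (2.80 against 3.38) lay below other TSSs. The naive control (10.4 against 5.54), the naive dCD (6.50 against 5.08) and the EpiLC dKO (4.95 against 3.79) lay above them.

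CpG content is one property in which these promoters differ from the rest. The mean number of CpG within 500 bases of the TSS was 61.8 for ribosomal protein genes and 45.1 for other genes. Only 26 of the 79 lay in the highest quartile of CpG. The other TSSs of that quartile had a mean of 93.2 CpG, so they are not matched in CpG content. Against the 5109 other TSSs of that quartile, which had 10.6 points in the naive and 6.80 in the EpiLC control, ribosomal protein genes were higher by 3.62 (1.64 to 5.58) in the naive control, while the EpiLC control gave 1.19 (-0.09 to 2.45). The naive difference was 0.60 (-2.55 to 3.72) with windows of 10 kb, 0.96 (-3.70 to 5.55) among isolated TSSs and 2.19 (-0.12 to 4.48) with RefSeq starts, and all 3 intervals held 0. In the dKO they were lower than this quartile, by -1.53 (-3.62 to 0.56) in the naive state and -1.53 (-2.72 to -0.35) in EpiLCs. Among the ribosomal protein genes themselves, the 39 above the median of 64 CpG had 13.7 points in the naive control and the other 40 had 14.7.

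Base composition of the flanks moved with the strand of the reads. The Crick share of a bin rose with its T minus A content in all 6 libraries, with slopes of 1.68 to 1.80 in the naive and 1.20 to 1.41 in the EpiLC libraries. T minus A content, measured on the reference strand, stepped up across the TSS by a mean of 1.48% of bases at ribosomal protein genes, 2.01% at other genes and 3.35% in the highest CpG quartile. With the fitted part taken off, ribosomal protein TSSs had 10.96 points in the naive control, 5.73 in the dKO and 9.56 in the dCD, and 6.12, 3.76 and 7.45 in EpiLCs. The highest CpG quartile then had 4.35 in the naive and 2.68 in the EpiLC control, and 3.91 and 2.55 in the naive and EpiLC dKO. Ribosomal protein genes were thus above this quartile by 6.60 (4.62 to 8.58) in the naive and 3.44 (2.17 to 4.71) in the EpiLC control after this step. In the dKO the difference was 1.82 (-0.28 to 3.91) in the naive state and 1.21 (0.02 to 2.39) in EpiLCs.

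**Figure D2:**
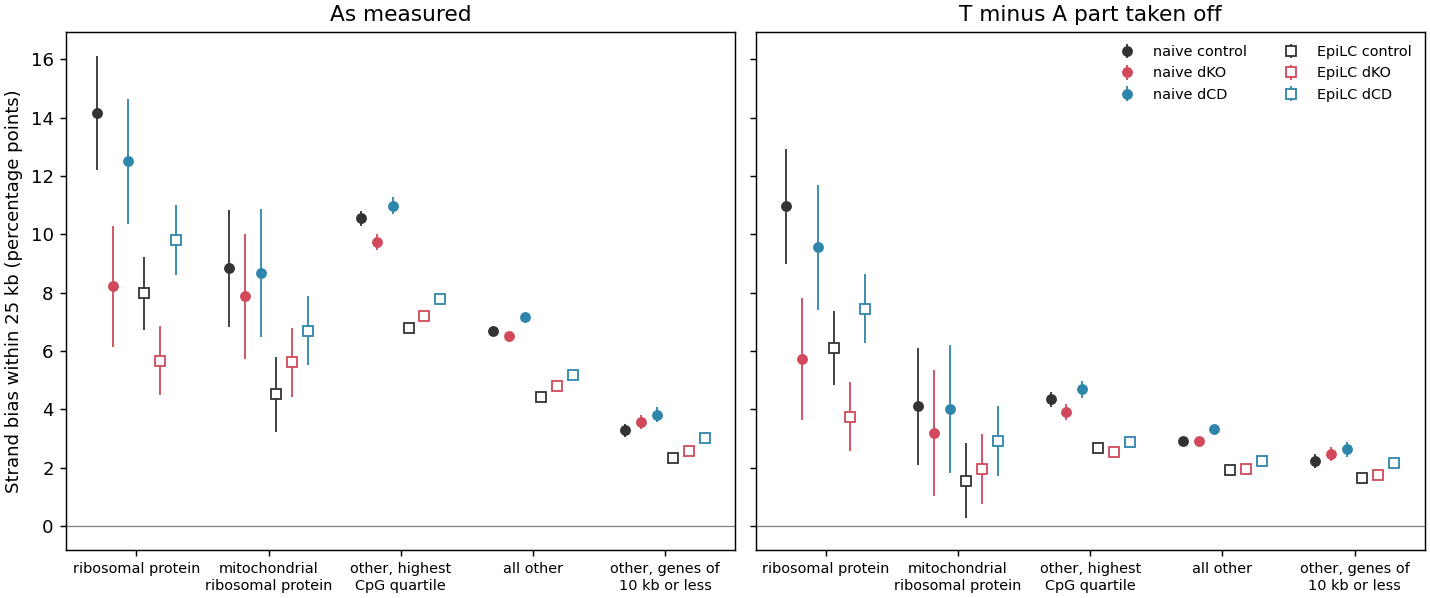
Summed strand bias within 25 kb of the TSS (percentage points; bars are 95% counting intervals) in the 6 libraries for ribosomal protein genes, mitochondrial ribosomal protein genes and 3 sets of other genes, as measured (left) and after correction for T minus A content (right). Ribosomal protein genes lie at 5.68 to 14.2 points as measured and at 3.76 to 10.96 after the step, and keep more of their value than the highest CpG quartile.

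The asymmetry at ribosomal protein genes lay on both sides of the TSS. Read in the direction of the gene, 41.4% of forks (40.01 to 42.8) in the 25 kb upstream moved with the gene in the naive control and 55.6% (54.2 to 56.99) downstream, which is 8.61 points below and 5.62 points above an even share. At all other TSSs the upstream share was 48.9%, only 1.07 points below an even share, and the downstream share was 55.6%. In the highest CpG quartile the 2 sides were 48.8% and 59.3%. In EpiLCs the control had 46.1% upstream and 54.1% downstream at ribosomal protein genes. Mitochondrial ribosomal protein genes lay 5.11 points below an even share upstream and 3.74 above it downstream in the naive control, and 4.18 and 0.40 in the EpiLC control. The gene itself covers little of the downstream window, since the median length of the 79 genes was 3431 bp. With the bins of the gene body and the TSS left out, the naive control was 12.3 points above other TSSs, which lose more of their downstream side in this way. The 7212 other genes of at most 10 kb lay 2.12 points below an even share upstream and 1.18 above it downstream in the naive control. Their strand bias was 3.28 points in the naive and 2.34 in the EpiLC control, so ribosomal protein genes were above short genes by 10.9 (8.92 to 12.9) and 5.64 (4.37 to 6.91).

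**Figure D3:**
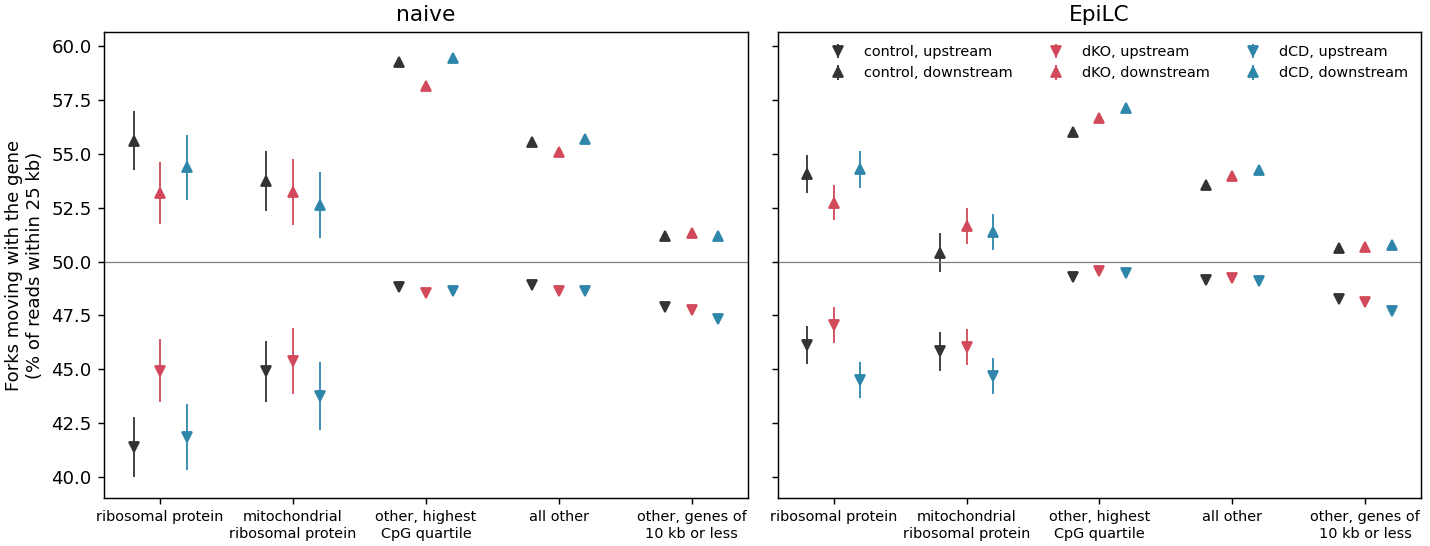
Percent of forks that move in the direction of the gene in the 25 kb upstream (triangles pointing down) and downstream (triangles pointing up) of the TSS, by line and state, with 95% counting intervals; the grey line is an even share. Upstream shares of ribosomal protein genes are 41.4% to 47.1%, those of mitochondrial ribosomal protein genes are 43.8% to 46.0%, of other genes of at most 10 kb 47.3% to 48.3%, and of all other genes 48.6% to 49.2%.

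Counts of single genes followed the sums only in part. In the naive control 45 of the 79 ribosomal protein genes had a strand bias of at least 10 points, against 39.6% of all 19818 TSSs with enough reads. In the naive dKO 33 did, against 39.8%, and in the naive dCD 46, against 41.1%. In EpiLCs there were 28 in the control (26.7% of all TSSs), 24 in the dKO (28.2%) and 37 in the dCD (29.4%). A counting interval wholly above 0 was found at 35 genes in the naive control (20.1% of all TSSs), 18 in the naive dKO (17.9%), 25 in the naive dCD (19.5%), 25 in the EpiLC control (21.1%), 22 in the EpiLC dKO (25.3%) and 35 in the EpiLC dCD (27.0%). An interval wholly below 0 was found at 1 gene each in the naive control (Rps18, 3.63% of all TSSs), the naive dKO (Rps18, 3.27%), the naive dCD (3.17%) and the EpiLC control (Rpl26, 3.37%). It was found at 3 genes in the EpiLC dKO (Rpl4, Rpl10a, Rps15, 4.13%) and at 2 in the EpiLC dCD (4.32%). At or above 10 points were thus 56.96% of ribosomal protein genes for the naive control but 41.8% for the naive dKO, the latter close to the background.

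Above 0 in all 6 libraries were 43 of the 79 genes (54.4%), against 31.0% of other TSSs, 43.3% of the highest CpG quartile and 42.3% of mitochondrial ribosomal protein genes. At or above 10 points in all 6 were 9 genes, from the large subunit Rpl3, Rpl6, Rpl17, Rpl22, Rpl30, Rpl35 and Rpl35a and from the small subunit Rps16 and Rps20, which is 11.4% against 6.88% of other TSSs, 10.9% of the highest CpG quartile and 7.69% of mitochondrial ribosomal protein genes. Rpl10a was below 0 in all 6, and 2 of the 79 genes were (2.53%), against 4.75% of other TSSs, 2.18% of the quartile and 2.56% of mitochondrial ribosomal protein genes.

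The 5 genes with the highest mean over the 6 libraries are given as a description, since their values chose them. Rpl17, which encodes a protein of the exit tunnel region of the large subunit, had 30.2 points in the naive control, 27.0 in the dKO and 28.4 in the dCD, and 12.6, 24.1 and 36.8 in EpiLCs. Its EpiLC dCD value had an interval of 26.2 to 46.2 on 326 reads. The start used for Rpl17 held only 11 CpG within 500 bases, as did that of Rps14. Those of Rps10 and Rps2 held 19 and 9, and there the RefSeq starts lie 1425 and 1947 bp away. The starts used for these 4 genes are thus in doubt. Those used for Rps24 and Rpl18 are in doubt too, since the RefSeq starts lie 3553 and 2614 bp away. Rpl34 had 29.4, 42.0 and 23.4 points in the naive and 21.8, 9.82 and 23.8 in the EpiLC libraries, in the order control, dKO and dCD, which is kept below. Among these 5 genes Rpl34 changed least with the correction for T minus A content, with a mean of 25.1 points as measured and 22.4 after it.

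Rpl35a, altered in Diamond-Blackfan anaemia, had 30.5, 25.4 and 34.8 points in the naive libraries and 15.8, 24.3 and 17.4 in EpiLCs. Rpl3, a protein close to the peptidyl transferase centre, had 32.6, 28.5 and 34.1 and then 10.7, 22.8 and 17.5. Rps20 had 28.2, 21.8 and 20.4 points in the naive state and 21.5, 22.4 and 30.6 in EpiLCs. All 5 were above 0 in every library, with the lowest value at Rpl34 in the EpiLC dKO, where the interval was -0.71 to 20.1. The T minus A step took the means of Rpl17, Rpl35a, Rpl3 and Rps20 to 13.4, 11.1, 12.9 and 12.5.

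At the other end, Rpl10a had -6.64, -17.6 and -13.8 points in the naive libraries and -7.85, -12.4 and -6.05 in EpiLCs. More forks moved towards this TSS than away from it in all libraries. Rps18 had -19.5, -18.0 and -4.88 points in the naive state, but -7.12, 2.22 and 5.35 in EpiLCs. Rpl31 had -5.25, -7.71 and -3.33 and then 10.8, -9.71 and -13.4, and its mean of -4.77 became 5.81 after the T minus A correction. Rpl7a had -4.77, -13.7 and -1.52 and then -6.94, 1.70 and -0.10, and its mean of -4.22 became 0.01. The low values of Rpl31 and Rpl7a were thus not kept after this correction, while Rpl10a stayed at -8.73.

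**Figure D4:**
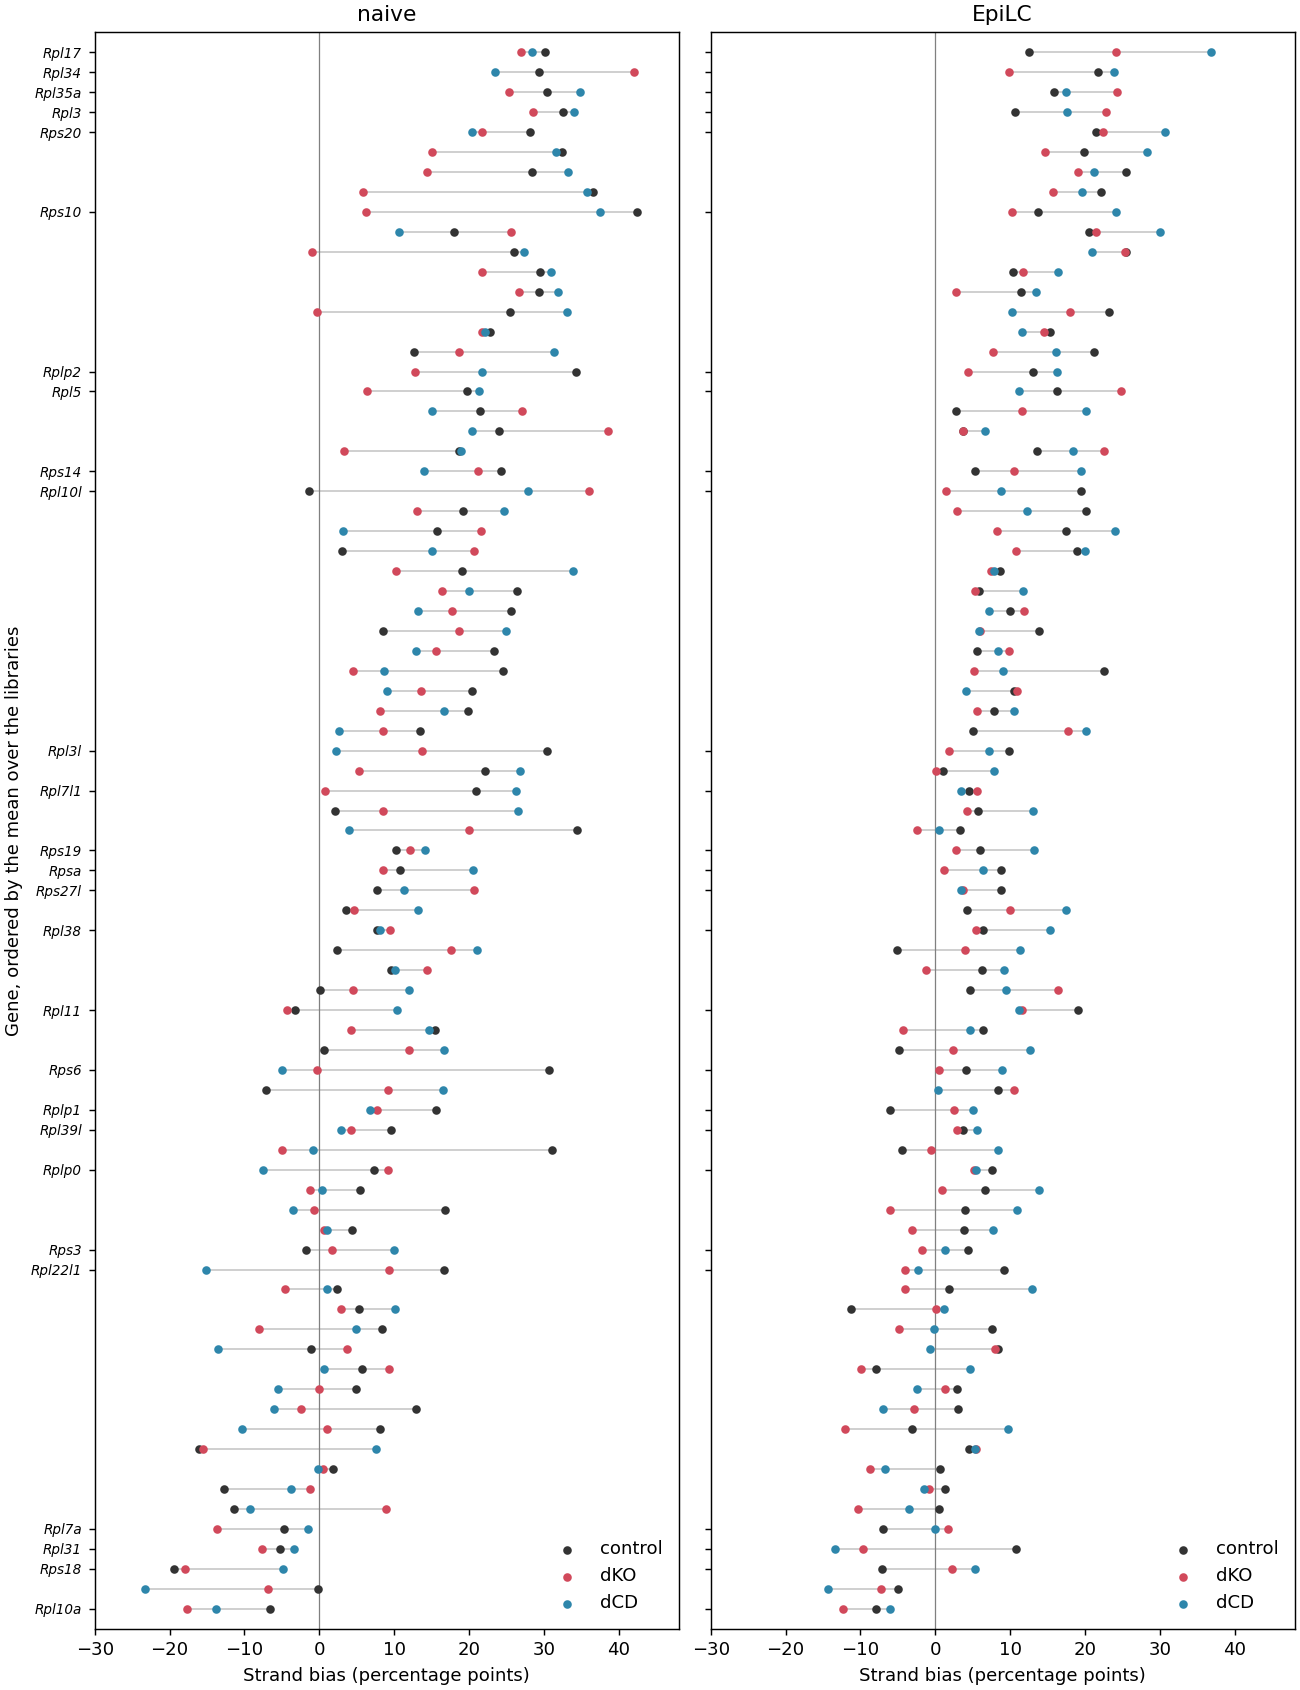
Strand bias (percentage points) of each ribosomal protein gene in the naive (left) and EpiLC libraries (right), by line, with genes ordered by their mean over the 6 libraries and grey lines joining the lowest and highest line of a state. Genes whose values stand in the text are labelled and the highest value is 42.5 at Rps10 in the naive control. The same gene stands at 6.30 in the naive dKO, and its start is one of those in doubt.

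Among genes with well known roles are those of the acidic stalk proteins, which recruit translation factors to the ribosome. Rplp2 had 34.3, 12.8 and 21.7 points in the naive libraries and 13.1, 4.39 and 16.3 in EpiLCs. Rplp1 had 15.6, 7.78 and 6.71 and then -5.98, 2.55 and 5.06. Rplp0 had 7.33, 9.24 and -7.53 and then 7.55, 5.20 and 5.51, and its mean of 4.55 became 0.23 after the T minus A correction. The interval of Rplp2 in the naive control was 18.7 to 47.6 and that of Rplp0 was -7.98 to 22.2, so they overlapped.

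Rpsa, the 40S protein also known as the laminin receptor, had 10.7, 8.57 and 20.5 points in the naive and 8.79, 1.12 and 6.40 in the EpiLC libraries. Rps6, the substrate of the S6 kinases, had 30.7 points (11.5 to 47.2) in the naive control, but -0.30 and -4.92 in the naive dKO and dCD, and 4.11, 0.46 and 8.95 in EpiLCs. Its high value was thus seen in 1 of 6 libraries. Rps3, at the entry of the mRNA channel, had -1.72, 1.72 and 10 and then 4.36, -1.75 and 1.32, and was close to 0 in most libraries.

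Rpl5 and Rpl11 form the 5S ribonucleoprotein particle that binds MDM2 when ribosome assembly is disturbed. Rpl5 had 19.7, 6.32 and 21.3 points in the naive and 16.2, 24.8 and 11.2 in the EpiLC libraries, above 0 in all. Rpl11 had -3.22, -4.37 and 10.4 and then 19.1, 11.6 and 11.2, positive in all EpiLC libraries but in only 1 of the naive ones. Rps19, the gene most often altered in Diamond-Blackfan anaemia, had 10.3, 12.1 and 14.1 and then 6.01, 2.82 and 13.3. Rps14, lost in the 5q- syndrome, had 24.3, 21.2 and 14.1 and then 5.25, 10.5 and 19.5, at the doubtful start named above, which lies far upstream of the gene in RefSeq. Rpl38, which in mice affects translation of Hox transcripts, had 7.68, 9.45 and 8.08 and then 6.35, 5.50 and 15.3, the narrowest range of these genes in the naive state. Rpl5, Rps19, Rps14 and Rpl38 were above 0 in all 6 libraries.

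The 6 paralogs together had 15.8, 11.1 and 10.4 points in the naive and 9.04, 2.54 and 4.40 in the EpiLC libraries, on few reads. Rpl3l, a form of striated muscle, had 30.4, 13.8 and 2.22 and then 9.88, 1.81 and 7.24. It shares most of its windows with Rps2, whose TSS is 9704 bp away, so these values are not independent of that gene. Rpl10l, a retrogene used in the testis, had -1.31, 36.0 and 27.9 and then 19.4, 1.45 and 8.72, the widest scatter of the paralogs. Rpl39l, also known from the testis, had 9.57, 4.29 and 2.91 and then 3.65, 2.89 and 5.63. Rpl7l1 had 20.9, 0.81 and 26.3 and then 4.47, 5.57 and 3.48. Rps27l, a p53 target, had 7.73, 20.7 and 11.3 and then 8.75, 3.76 and 3.38. Rpl22l1 had 16.6, 9.35 and -15.2 and then 9.17, -4.03 and -2.31. No paralog stood outside the range of the other ribosomal protein genes, and without the paralogs the naive control had 14.1 points and the EpiLC control 7.91.

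The subunits did not separate in the controls. The large subunit had 14.4 points in the naive control and the small subunit 13.9, a difference of 0.45 (-3.57 to 4.49), and in the EpiLC control they had 8.85 and 6.59. In the EpiLC dKO the large subunit was higher, at 6.95 against 3.61, a difference of 3.34 (0.93 to 5.75). The 18 genes altered in Diamond-Blackfan anaemia had 14.8 points in the naive control, against 14.01 for the other 61. They were higher in the EpiLC dKO, at 8.22 (5.76 to 10.7) against 4.97 (3.63 to 6.30), and in the naive dCD, at 15.4 against 11.6. In the EpiLC dCD they were slightly lower, at 9.58 against 9.87. The 44 genes on the plus strand and the 35 on the minus strand had 13.8 and 14.8.

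Genes that host small nucleolar RNAs, which guide the modification of ribosomal RNA, were higher than the rest in the naive control. The 28 hosts hold 56 such RNAs in GENCODE M21. They had 18.6, 9.45 and 15.2 points in the naive libraries and 8.51, 7.56 and 12.6 in EpiLCs, and the other 51 genes had 11.7, 7.52 and 10.97 and then 7.69, 4.61 and 8.22. The difference was 6.89 (2.82 to 10.9) in the naive and 0.82 (-1.81 to 3.45) in the EpiLC control. The T minus A step across the TSS was larger at the hosts, with a mean of 2.43% against 0.955%, and with this part taken off the naive control had 14.2 points at hosts and 9.14 at the rest. In the EpiLC control the order then turned, with 5.74 and 6.31.

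Strand bias was also compared by neighbouring genes, with an order that changed between libraries. The 15 genes with a TSS of the opposite strand within 1 kb had 8.80 points in the naive control and the other 64 had 15.5, a difference of -6.67 (-11.7 to -1.73), but in the naive dCD both had close values, 12.7 and 12.4. In EpiLCs the 15 genes had 6.70, 6.52 and 7.28 points and the other 64 had 8.29, 5.46 and 10.4, so in the dKO the 15 were the higher group. The 12 genes with no other TSS within 25 kb had 8.87, 11.5 and 12.8 points in the naive libraries and 7.13, 4.97 and 6.79 in EpiLCs. The 39 genes with 2 or more had 16.0, 6.40 and 13.8 and then 8.41, 6.39 and 11.6, and were thus the lower group in the naive dKO alone. The mean number of other TSSs within 25 kb was 2.01 at ribosomal protein genes and 1.06 at other genes. Many of the windows thus hold other promoters as well, and the part of those promoters in these values was not tested.

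The KMT2C/D dKO had a lower strand bias at ribosomal protein TSSs than the control in both states. The difference was -5.95 points (-8.80 to -3.10) in naive ESCs and -2.31 (-4.03 to -0.59) in EpiLCs. With windows of 10 kb the EpiLC difference was -0.50 (-3.19 to 2.19), with an interval that held 0. At all other TSSs it was -0.18 (-0.37 to 0.02) and 0.35 (0.24 to 0.47), at the highest CpG quartile -0.80 and 0.41, and at mitochondrial ribosomal protein genes -0.96 (-3.90 to 1.98) and 1.09 (-0.66 to 2.84). The difference between ribosomal protein and all other TSSs in this change was -5.77 (-8.63 to -2.92) and -2.66 (-4.39 to -0.94). Among the 79 genes, 52 were below the control in the naive state and 52 in EpiLCs, while 50.4% and 48.2% of other TSSs were below. The median over genes was -4.91 points in the naive state and -2.28 in EpiLCs, and -0.15 and 0.34 over other TSSs. Each value compares 1 pooled library with another.

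Single genes scattered widely in this comparison. In the naive dKO 23 genes were at least 10 points lower than the control and 11 at least 10 points higher, against 24.9% and 24.5% of all TSSs. In EpiLCs 11 were lower and 5 higher by that much, against 11.5% and 12.8%. The shares of genes that fell that far, 29.1% and 13.9%, were thus near the background, and the lower sums went with fewer genes that rose. Rps10, at 42.5 points in the naive control and 6.30 in the dKO, had the lowest difference, and Rpl10l the highest. Leaving out any single gene kept the naive difference between -6.36 and -5.39 and the EpiLC difference between -2.53 and -2.06. The genes of this paragraph were chosen by these values.

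The difference between the dKO and the control changed with the distance from the TSS. Within 5 kb the naive control had 10.4 points and the dKO 1.47, a difference of -8.90 (-15.2 to -2.58). Between 5 and 10 kb the difference was -4.42 (-10.8 to 1.93) in the naive state and -3.16 (-7.02 to 0.70) in EpiLCs, with intervals that held 0. Between 10 and 25 kb the naive control and dKO had 17.2 and 12.04, a difference of -5.20 (-8.89 to -1.51). Between 25 and 50 kb the dKO was still below the control, by -1.52 (-4.39 to 1.34) and in EpiLCs by -0.81 (-2.53 to 0.92), and both intervals held 0. From 50 to 100 kb the dKO was higher, by 3.68 (1.60 to 5.76) in naive ESCs and by 1.88 (0.64 to 3.13) in EpiLCs. In EpiLCs the dKO was lower between 10 and 25 kb, by -3.50 (-5.74 to -1.26), but not within 5 kb, where the difference was 2.02 (-1.74 to 5.77). Both arms of the window took part. The upstream share of forks moving with the gene rose from 41.4% to 44.9% in the naive state, and the downstream share went from 55.6% to 53.2%. At all other TSSs the naive difference also turned, from -0.20 within 5 kb to 0.77 from 50 to 100 kb. In the highest CpG quartile it went from -0.65 to 0.67. Within 5 kb both intervals held 0. Mitochondrial ribosomal protein genes stayed below 0, at -1.58 and -0.38. From 50 to 100 kb in EpiLCs these sets had 0.73, 0.76 and 1.13, in the same order.

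The difference in the naive state was not seen at genes that stand alone. At the 16 ribosomal protein genes with no other TSS between 1 and 25 kb away, the naive control had 12.2 points and the naive dKO 12.4, a difference of 0.17 (-6.60 to 6.93), and in EpiLCs the difference was -1.29 (-5.30 to 2.72). These intervals are wide and include the values of all 79 genes. The difference between the genes with no other TSS within 25 kb and those with 2 or more was 12.2 points (3.28 to 21.01) for the naive dKO minus control, and -0.13 (-5.41 to 5.15) in EpiLCs.

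The KMT2C/D dCD had a higher strand bias than the dKO as measured. In naive ESCs the dCD minus control was -1.66 points (-4.56 to 1.24), and in EpiLCs 1.82 (0.09 to 3.55). The EpiLC interval held 0 after the T minus A correction, at 1.34 (-0.40 to 3.07), with RefSeq starts, at 1.07 (-0.94 to 3.08), and with windows of 10 kb, at 0.84 (-1.88 to 3.56), and at isolated genes the sign turned, at -1.48 (-5.48 to 2.52). The dCD was above the dKO by 4.29 (1.31 to 7.26) in the naive state and 4.13 (2.47 to 5.80) in EpiLCs. In the naive dCD 20 genes were at least 10 points lower and 14 higher, against 23.7% and 25.4% of all TSSs, and in EpiLCs 6 were lower and 15 higher, against 10.9% and 13.8%. The dCD libraries also had the largest swings of Crick share along the genome, with an SD over 50 kb bins of 16.5 points in the naive dCD and 12.6 in the naive control, and of 12.3 and 9.71 in EpiLCs. Divided by this amplitude and put on the scale of the control, the dCD minus control became -4.62 (-7.17 to -2.07) in the naive state and -0.21 (-1.78 to 1.36) in EpiLCs, and the dKO minus control -6.36 (-9.13 to -3.58) and -2.80 (-4.45 to -1.15). On the scale of the dKO, the dCD minus dKO was then 1.82 (-0.87 to 4.51) in the naive state, with an interval that held 0, and 2.83 (1.27 to 4.39) in EpiLCs. The naive interval also held 0 as a mean over genes, at 2.94 (-0.04 to 5.93), with windows of 10 kb, at 2.96 (-1.72 to 7.63), and at isolated genes, at 4.06 (-3.10 to 11.2). In EpiLCs the values were -0.19 (-4.10 to 3.72) at isolated genes and 1.34 (-1.27 to 3.95) with windows of 10 kb.

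**Figure D5:**
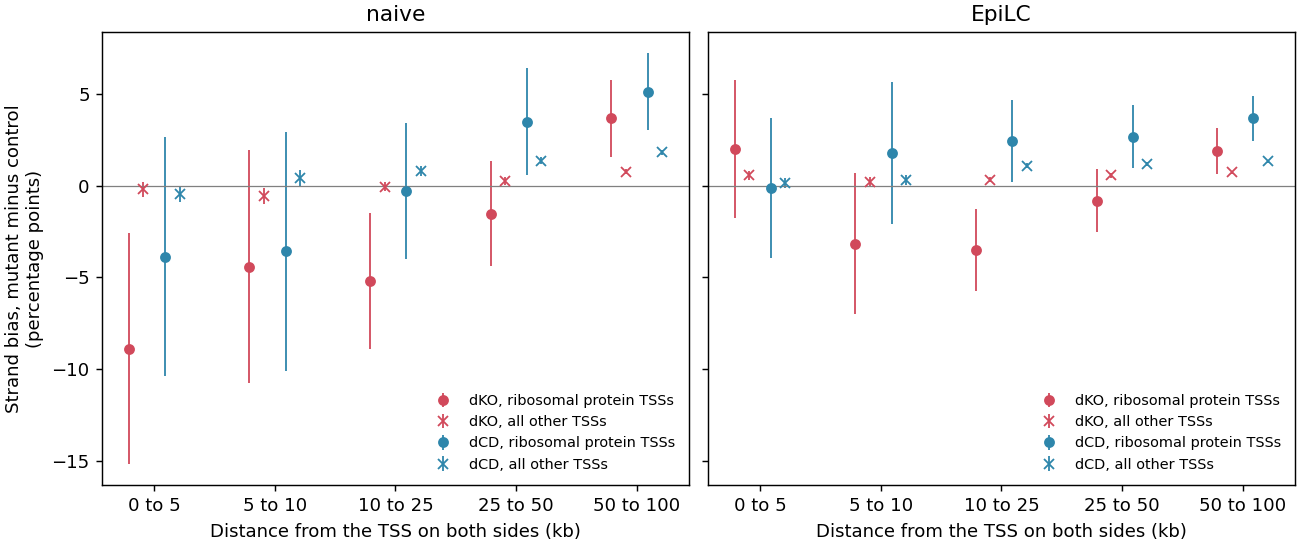
Strand bias of the mutant minus that of the control (percentage points, bars are 95% counting intervals) by distance from the TSS on both sides, for ribosomal protein TSSs (circles) and all other TSSs (crosses), in naive ESCs (left) and EpiLCs (right). At ribosomal protein TSSs the naive dKO goes from -8.90 within 5 kb to 3.68 between 50 and 100 kb, and the dCD is higher than the control at the outermost distance in both states, by 5.14 and 3.68.

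From naive ESCs to EpiLCs strand bias at ribosomal protein TSSs was lower in all 3 lines as measured, most stably in the control. The difference was -6.19 points (-8.51 to -3.86) in the control, -2.55 (-4.92 to -0.16) in the dKO and -2.70 (-5.14 to -0.25) in the dCD. The interval stayed without 0 under 13 of 14 alternatives in the control, 9 in the dKO and 6 in the dCD. After the T minus A correction the dKO gave -1.97 (-4.36 to 0.41) and the dCD -2.10 (-4.55 to 0.36), and without paralogs -2.11 (-4.57 to 0.35) and -2.39 (-4.92 to 0.15). The exception in the control was isolated genes, at -3.42 (-8.84 to 2.06). At all other TSSs it was -2.26, -1.73 and -1.97, so ribosomal protein genes changed more than these in the control, by -3.93 (-6.25 to -1.59), while in the dKO and dCD the intervals of that difference held 0. The highest CpG quartile fell by 3.75 in the control and mitochondrial ribosomal protein genes by 4.31, and the change at ribosomal protein genes differed from these by -2.43 (-4.77 to -0.08) and -1.88 (-5.20 to 1.45). The amplitude fell as well, from 12.6 to 9.71 points in the control. In the control 28 genes were at least 10 points lower in EpiLCs and 9 higher, against 26.5% and 16.6% of all TSSs. In the dKO these were 20 and 9, against 24.9% and 17.6%, and in the dCD 23 and 13, against 26.1% and 17.6%. Divided by the amplitude the change was -3.82 (-6.36 to -1.26) on the naive scale in the control, -1.15 (-3.68 to 1.39) in the dKO and 0.69 (-1.97 to 3.37) in the dCD, so only the control kept an interval without 0. With windows of 10 kb the dKO gave 0.0402 (-3.66 to 3.74).

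Mitochondrial ribosomal protein genes, whose products form the ribosome of mitochondria, allow a comparison with promoters of a related function. Their 78 TSSs had 8.83, 7.87 and 8.67 points in the naive libraries and 4.52, 5.61 and 6.70 in EpiLCs. As measured, the cytosolic genes were above them by 5.34 (2.54 to 8.13) in the naive and 3.46 (1.66 to 5.26) in the EpiLC control. The difference was 3.84 and 3.11 in the dCD, but 0.35 (-2.64 to 3.34) and 0.06 (-1.60 to 1.73) in the dKO. After the T minus A correction the naive dKO had 5.73 points (3.65 to 7.80) at cytosolic and 3.21 (1.05 to 5.36) at mitochondrial ribosomal protein genes. The EpiLC dKO then had 3.76 (2.58 to 4.93) and 1.96 (0.77 to 3.15). Promoters of mitochondrial ribosomal protein genes held 17 CpG in the 250 bases upstream as a median, close to the 18 of ribosomal protein genes. Of these promoters, 0 of 69 began with C and 4 bases of C or T. The letters CCGGAAG stood at 16 of these 69 (23.2%), also above the share of all promoters.

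The order of the genes was partly shared between libraries. Across the 79 genes, whose base composition is the same in each library, Pearson's r of strand bias between 2 libraries ranged from 0.41 (naive dKO and EpiLC dKO) to 0.71 (EpiLC dKO and EpiLC dCD), and across other TSSs from 0.46 to 0.61. Reads at the TSS were slightly denser than in the flanks from 25 to 100 kb away. The ratio was 1.24, 1.20 and 1.15 in the naive control, dKO and dCD, and 1.11, 1.16 and 1.03 in EpiLCs. The read counts behind the sums were thus not depleted at these promoters. Other TSSs had ratios of 1.17 in the naive and 1.04 in the EpiLC control, and the highest CpG quartile had 1.19 and 0.949.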

How the data were processed

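In the study's methods the authors aligned OK-seq reads to mm10 with bowtie2 and binned them by strand into 1 kb bins. The submitters' notes also name Picard, and its role, like tool versions, is not given in the sources used here. The deposited Watson and Crick values, with the 2 replicates of a condition summed, have no unit in the common sense. They were whole multiples of what 1 read is worth and were turned back into read counts (2725511 bins per library, 3655095 to 13601460 reads). The 83 bins over 10 times the median of the summed libraries were left out, a rule set after counts but before strand bias was seen.

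The genes, lists and splits were chosen with earlier results of these data known, and the set of short genes, the distance steps and the RefSeq starts after values were seen. Genes named are those of well known roles, the paralogs, the 5 highest and the 5 lowest means, and those said to be chosen by value. Values of some genes that this rule takes are not reported here. Wilson intervals were used for each side, Newcombe intervals for strand bias, and added squares of half-widths for further differences. The T minus A part is each library's slope of a bin's Crick share, above that of neighbouring bins, on its T minus A content. Scripts were tested on simulated strands. Python 3.11.15, numpy 2.4.6, pandas 2.3.3, scipy 1.17.1 and matplotlib 3.10.9 were used. The alternatives were other windows, starts, gene sets, bin filters and scalings, and leaving out a replicate was not possible.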

Additional observations from a re-analysis of the deposited data

Results flagged for a closer look

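At ribosomal protein TSSs the KMT2C/D dCD minus control was -1.66 points in naive ESCs and 1.82 points in EpiLCs, with opposite signs as measured. The naive interval, -4.56 to 1.24, held 0. Under 11 of 15 alternatives the naive value stayed negative and the EpiLC value positive. Under 3 both had the same sign, negative when divided by the amplitude (-4.62 and -0.21) and also with the T minus A correction (-4.21 and -0.26), and positive with windows of 50 kb (0.92 and 2.29). At isolated genes the signs were turned (4.24 and -1.48). Each state has 1 pooled library per line, and the difference between the states was not tested.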

How the results depend on the processing

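Of 262 values recomputed for 19 results under 15 alternatives, 206 lay within the counting interval of the reported value and 56 outside it. The sign changed in 11, of which 8 belong to results whose reported interval held no 0. The dKO minus control was below 0 under 15 of 15 alternatives in EpiLCs and 14 of 15 in naive ESCs. Windows of 10 kb gave 9.61, 2.93 and 5.89 points for the naive control, dKO and dCD and 3.47, 2.97 and 4.31 in EpiLCs. Ribosomal protein minus other TSSs was then 3.51 in the naive and -0.28 in the EpiLC control, against the highest CpG quartile 0.60 and -1.92, the EpiLC dKO minus control -0.50, the EpiLC dCD minus dKO 1.34, and the EpiLC minus naive dKO 0.0402. Windows of 50 kb gave 16.3, 12.5 and 17.2 and then 11.3, 9.78 and 13.6, with 9.58 and 6.56 against other TSSs and 5.80 and 3.87 against the quartile in the naive and EpiLC controls. Without gene bodies these were 12.3 and 6.36, and 11.8 and 6.36. With each bin counted once, the difference from other TSSs was 4.15 and 1.47.

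Isolated genes gave 12.2, 12.4 and 16.4 in the naive libraries and 7.47 and 7.28 in the EpiLC dKO and dCD, 4.78 against other isolated TSSs and 0.96 against the quartile in the naive control. Their dKO and dCD minus control was 0.17 and 4.24 in the naive state, their EpiLC dCD minus control -1.48, their EpiLC dCD minus dKO -0.19, and their EpiLC minus naive value -3.42 in the control and -9.14 in the dCD. After the T minus A correction the libraries had 10.96, 5.73 and 9.56 and then 6.12, 3.76 and 7.45, and the difference from the quartile was 6.60 and 3.44. Divided by the amplitude, the dCD minus control was -4.62 in the naive state and -0.21 in EpiLCs, and EpiLC minus naive was -3.82 in the control and 0.69 in the dCD. With both steps, an alternative added after seeing the data like the RefSeq starts and a stricter bin filter, the EpiLC dCD minus control was -0.26 and the EpiLC dCD minus dKO 2.45. The alternatives for the dCD minus dKO were chosen after seeing the data. The cause of these changes was not tested.

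No paired analysis was possible because the 2 replicates of each condition are summed in the files. The same holds for leaving out a replicate. Depth limits single genes most, since a gene had as few as 56 reads in a naive library.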

Other observations

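Other genes of protein synthesis had fewer members and wider intervals. The 17 translation factor TSSs had 5.17, 7.77 and 10.4 points in the naive control, dKO and dCD and 3.67, 4.74 and 4.42 in EpiLCs, which was 9.0 (4.26 to 13.8) below the ribosomal protein genes in the naive control. The 22 ribosome biogenesis genes had 11.3, 8.93 and 12.4 and then 6.44, 5.16 and 7.86. As measured, the interval of their difference from ribosomal protein genes held 0 in all 6 libraries. After the T minus A correction they lay below the ribosomal protein genes in all 6 libraries. In EpiLCs they then had 2.51, 0.44 and 2.93 points, against 6.12, 3.76 and 7.45 at ribosomal protein genes. Whether the intervals of the corrected differences hold 0 was not tested.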
